A study of Homo sapiens with 17 samples.

Results

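The zinc-dependent histone deacetylases HDAC1 to HDAC10 were followed in SF8628 cells, an established line of diffuse midline glioma (DMG) that carries the K27M mutation of histone H3.3. The 10 genes were chosen by symbol and matched to the Ensembl gene identifiers of an RNA-Seq table of 60664 genes, and they were split by family class into 4 of class I (HDAC1, HDAC2, HDAC3 and HDAC8), 4 of class IIa (HDAC4, HDAC5, HDAC7 and HDAC9) and 2 of class IIb (HDAC6 and HDAC10). The cells were grown as monolayers and received the vehicle DMSO or 1 μM AZD5153, an inhibitor of the acetyl-lysine binding bromodomains of BET proteins, over 24 or 48 hours. There were 3 libraries in each of the 4 groups, 12 in all, and all of them came from this single line. The labels do not say whether the 3 libraries of a group were separate cultures, so the p-values measure the spread between these libraries, which may be technical. H3K27ac CUT&RUN libraries of the same cells were not analysed here.

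Histone deacetylases remove acetyl groups from lysines of histones and other proteins, the modification that BET bromodomains bind. HDAC1, HDAC2 and HDAC3 are nuclear enzymes that work within corepressor complexes: HDAC1 and HDAC2 in CoREST, NuRD, Sin3 and MiDAC, and HDAC3 in the NCoR complex, while HDAC8 acts alone on proteins such as the cohesin subunit SMC3. The class IIa members have little catalytic activity of their own, bind MEF2 transcription factors and move between nucleus and cytoplasm when kinases phosphorylate them and 14-3-3 proteins hold them in the cytoplasm. HDAC6 deacetylates tubulin and cortactin in the cytoplasm, and HDAC10 deacetylates polyamines. Compounds that inhibit these enzymes have been studied in DMG.

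The libraries held 15759148 to 27335220 reads on genes, with a median of 20737337. All 10 members passed the minimum of a mean of 10 normalized counts over the 12 libraries, as did 15599 genes in all. HDAC10 passed it only through the 48 hour groups. Replicate 1 of DMSO at 24 hours stood apart from the other libraries of its group: the chi-square of their counts, per degree of freedom, was 16.8 and 25.6, where the other pairs within groups gave 2.12 to 5.21. The glioma markers SOX2, NES, VIM and CSPG4 were measured in every library, and of the 6 tested genes of their list 4 were lower with AZD5153 at 24 hours, 3 at 48 hours and 0 higher (median log2 fold changes of -0.51 and -0.30). Of all genes tested, 34.6% were lower and 33.9% higher at 24 hours, and 33.9% were lower and 33.1% higher at 48 hours. NES gave -1.43 and -1.87, CSPG4 -2.23 and -1.76, SOX2 -0.60 and -0.30 and VIM -0.28 and 0.01, the last not called. GFAP (-0.43 and -0.27) and S100B (0.14 and -0.30) were not called at either time. In contrast, the oligodendrocyte lineage markers OLIG1 and OLIG2 were at 0 in all 12 and PDGFRA did not exceed 5.4 normalized counts. Of the 5 myeloid markers, AIF1 was at 0 and PTPRC, CD68 and ITGAM did not exceed 4.5 normalized counts, and of the 5 endothelial markers CDH5 was at 0 and CLDN5 did not exceed 2.68. The myeloid list was otherwise carried by CSF1R, which was lower with AZD5153 (-2.73 and -2.49). Of the other endothelial markers, PECAM1 (-2.72 and -4.07) and VWF (-1.705 and -1.77) were lower. KDR, at 4.50 to 25.5 normalized counts, passed the minimum only through the AZD5153 groups. Its means were 7.48 and 7.10 normalized counts in DMSO and 17.8 and 12.3 with AZD5153. The fibroblast markers COL1A1 (-1.70 and -1.66), COL1A2 (-2.26 and -1.92), LUM (-1.86 and -2.375) and PDGFRB (-1.97 and -2.01) were lower with AZD5153 at both times. DCN passed the minimum only through the DMSO groups and had means of 19.9 and 16.3 normalized counts in DMSO and 4.37 and 1.81 with AZD5153. For all 5 the summed normalized counts were 61155 to 76338 in DMSO and 19285 to 20025 with AZD5153 at 24 hours, against 82039 to 88250.0 and 25419.8 to 25594 at 48 hours. The 5 endothelial markers summed to 333 to 386 and 607 to 644 in DMSO and to 69.8 to 95.2 and 59.0 to 75.7 with AZD5153. Of the 5 neuron markers, STMN2 was at 0, SYT1 (0.10 and 0.195) was not called and SNAP25 (-1.45 and -1.36) was lower, and their sum was 702 to 884 in DMSO and 746 to 922 with AZD5153 over both times. The part of these markers in the results for the members was not tested. In bulk RNA, fewer cells of a kind and less RNA per cell cannot be told apart.

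The promoters of the members that rose most and fell most are shown first, as the 250 bases before the annotated start in RefSeq on GRCh38.p14. The class I genes HDAC1 and HDAC3 and the class IIa genes HDAC7 and HDAC9 are given, HDAC9 with an upstream start and the first of its 4 internal starts. The RefSeq start of HDAC7 lies inside the longer GENCODE 44 model of that gene. Capitals mark 6 motifs searched on both strands: the GC box GGGCGG, the CCAAT box CCAAT, the E-box CACGTG, the AP-1 motif TGANTCA, the MEF2 motif (CTA and TAG with any 4 bases between) and the E2F motif TTTNNCGC.
HDAC1, chr1:32291833-32292082, plus strand: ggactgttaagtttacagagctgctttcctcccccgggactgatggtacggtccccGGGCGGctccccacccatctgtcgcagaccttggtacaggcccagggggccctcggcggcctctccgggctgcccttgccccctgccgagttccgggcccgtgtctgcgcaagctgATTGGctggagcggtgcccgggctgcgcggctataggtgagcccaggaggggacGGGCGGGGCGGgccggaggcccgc
HDAC3, chr5:141636850-141637099, minus strand: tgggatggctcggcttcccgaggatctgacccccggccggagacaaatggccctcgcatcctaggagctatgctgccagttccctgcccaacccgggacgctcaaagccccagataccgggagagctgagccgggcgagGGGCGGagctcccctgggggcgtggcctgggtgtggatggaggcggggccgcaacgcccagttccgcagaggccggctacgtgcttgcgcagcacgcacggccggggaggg
HDAC7 start inside the GENCODE model, chr12:47819904-47820153, minus strand: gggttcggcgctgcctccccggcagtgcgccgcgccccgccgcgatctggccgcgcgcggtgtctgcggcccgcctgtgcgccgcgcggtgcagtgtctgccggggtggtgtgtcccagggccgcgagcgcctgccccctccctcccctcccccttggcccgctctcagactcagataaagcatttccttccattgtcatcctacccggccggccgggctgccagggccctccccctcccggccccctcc
HDAC9 upstream start, chr7:18086575-18086824, plus strand: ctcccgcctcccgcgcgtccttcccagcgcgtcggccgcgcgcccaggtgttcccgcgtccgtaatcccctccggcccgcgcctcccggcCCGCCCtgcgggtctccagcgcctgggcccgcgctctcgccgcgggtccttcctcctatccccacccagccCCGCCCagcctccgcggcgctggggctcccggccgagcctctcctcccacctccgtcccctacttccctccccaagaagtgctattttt
HDAC9 internal start, chr7:18495460-18495709, plus strand: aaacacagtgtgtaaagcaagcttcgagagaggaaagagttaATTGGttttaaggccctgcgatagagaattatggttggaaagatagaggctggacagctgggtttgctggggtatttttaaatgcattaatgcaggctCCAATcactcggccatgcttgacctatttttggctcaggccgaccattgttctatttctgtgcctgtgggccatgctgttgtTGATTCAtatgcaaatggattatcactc

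RefSeq promoters were matched for 9 of the 10 members (all but HDAC5). The HDAC1, HDAC3 and HDAC7 windows and that of the upstream HDAC9 start held 21, 22, 28 and 32 CpG dinucleotides, against a median of 11 over 35116 promoters of the same length. The internal HDAC9 window held 4 CpG and a GC content of 44%, against 75.2% in the upstream window. HDAC1 had 3 matches to the GC box, 2 of them overlapping near the start, and 1 CCAAT box, whereas HDAC3 had 1 GC box. The GC box occurs in 42.6% of all promoters and the CCAAT box in 32%. HDAC7 had no match to any of the 6 motifs in this window. The upstream HDAC9 window had 2 GC boxes, and the internal one had 2 CCAAT boxes and 1 AP-1 motif, which is found in 6.57% of promoters. Of the other 3 internal windows, 1 overlaps the printed one and holds the same matches, 1 has 2 CCAAT boxes alone and 1 has no match. The MEF2 motif was in none of the 5 windows and in 2.36% of all promoters. These matches describe the letters only, and the counts per gene do not tell the HDAC9 starts apart.

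**Figure D1:**
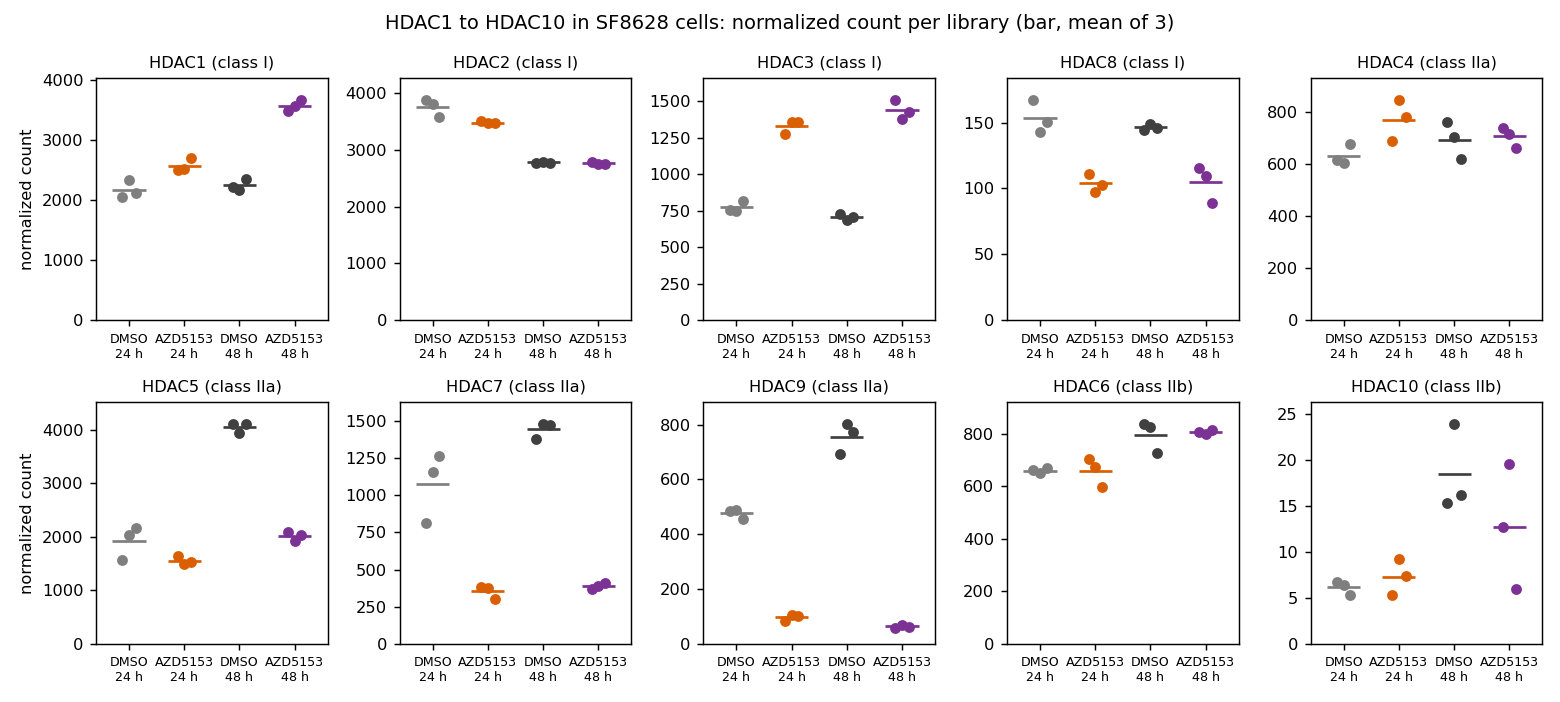
Normalized count of each member per library (points) in the 4 groups, with the mean of 3 libraries as a bar; each panel has its own axis, which starts at 0. HDAC9 fell from between 456 and 488 in DMSO to between 84.5 and 105 in AZD5153 at 24 hours, HDAC3 lay between 1279 and 1507 in AZD5153 against 684 to 818 in DMSO, and HDAC6 overlapped between treatments at both times.

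Class IIa held the largest decreases of the family. HDAC9, HDAC7 and HDAC5 were lower with AZD5153 at both times, and HDAC4 was not. HDAC9 (ENSG00000048052, chr7:18086949-19002416 on the plus strand in GENCODE 44) encodes a MEF2-binding corepressor. At 24 hours its normalized counts were 485, 488 and 456 in DMSO and 84.5, 105 and 102 with AZD5153. At 48 hours they were 694, 802 and 774 in DMSO and 58.4, 69.5 and 61.6 with AZD5153. The groups were far apart at both times, with DMSO higher at 48 than at 24 hours and AZD5153 lower. The log2 fold change was -2.29 ± 0.12 (SE, adjusted p = 8.3e-11, limma) at 24 hours, a 4.88-fold decrease. The 48 hour value was -3.56 ± 0.12 (adjusted p = 5.1e-13), an 11.8-fold decrease. Of the 15599 genes tested, 567 had a lower log2 fold change than HDAC9 at 24 hours and 243 at 48 hours.

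HDAC7 (ENSG00000061273, chr12:47782722-47833132, minus strand), a class IIa member known from endothelial cells and thymocytes, was at 814, 1157 and 1263 normalized counts in DMSO and 383, 377 and 299 with AZD5153 at 24 hours. Its values at 48 hours were 1383, 1480.5 and 1476 in DMSO and 366, 389 and 412 with AZD5153. Every AZD5153 library lay below every DMSO library, and the spread was widest in DMSO at 24 hours, where replicate 1 was low. HDAC7 fell by 1.59 ± 0.13 on the log2 scale at 24 hours (adjusted p = 2.9e-08), which became -1.78 without that library. At 48 hours it fell by 1.89 ± 0.13 (adjusted p = 3.6e-09), a 3.72-fold decrease. HDAC7 shares 30 exon bases with SLC48A1 on the other strand, a heme transporter gene that was higher with AZD5153 (log2 fold changes 0.27 and 0.405), its 24 hour call being lost without replicate 1 of DMSO (0.21) or replicate 1 (0.24) or 2 (0.21) of AZD5153.

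HDAC5 (ENSG00000108840, chr17:44076746-44123702, minus strand), another MEF2 corepressor, was measured at 1569, 2038 and 2163 normalized counts in DMSO and 1637, 1501 and 1525 with AZD5153 at 24 hours. The groups overlapped there, as replicate 1 of DMSO lay among the AZD5153 libraries. At 48 hours the values were 4110.1, 3948 and 4112 in DMSO and 2096, 1917 and 2030.4 with AZD5153, with no overlap. The log2 fold change was -0.29 ± 0.09 (adjusted p = 0.0085) at 24 hours and -0.43 without that DMSO library. At 48 hours it was -1.01 ± 0.09 (adjusted p = 5.8e-08), a 2.01-fold decrease. HDAC5 shares 1826 exon bases with G6PC3, a glucose-6-phosphatase gene on the other strand with a mean of 2323 normalized counts, and the strand setting of the counting is not given in the sources used here. G6PC3 itself had log2 fold changes of 0.19 (adjusted p = 0.084) at 24 hours and -0.23 (adjusted p = 0.043) at 48 hours. Its 24 hour value was 0.04 without replicate 1 of DMSO, and its 48 hour call was lost when any one of 7 libraries was left out.

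HDAC4 (ENSG00000068024, chr2:239048168-239401654, minus strand) is the class IIa member best known from bone and muscle. At 24 hours it was at 615, 601 and 676 normalized counts in DMSO and 685, 843 and 777 with AZD5153, and at 48 hours at 759, 701 and 617 in DMSO and 737, 715 and 661 with AZD5153. The 24 hour groups lay close to each other without overlapping and the 48 hour groups overlapped. HDAC4 was higher at 24 hours (0.28 ± 0.09, adjusted p = 0.015), and this call was lost with libraries scaled to equal totals (0.16, adjusted p = 0.15, range over the alternatives 0.0051 to 0.15) and without replicate 2 of DMSO (0.25) or of AZD5153 (0.21) at that time. The 48 hour difference was 0.03 ± 0.09, with a 95% interval from -0.17 to 0.23. HDAC4 is thus the class IIa member with no decrease called at either time.

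In class I, HDAC3 and HDAC1 rose, HDAC8 fell, and HDAC2 differed little. HDAC3 (ENSG00000171720, chr5:141620876-141636849, minus strand), the catalytic subunit of the NCoR complex, was at 753, 747 and 818 normalized counts in DMSO and 1279, 1362 and 1359 with AZD5153 at 24 hours. At 48 hours the DMSO libraries were at 729.6, 684 and 706 and the AZD5153 libraries at 1507, 1379 and 1428. All 6 AZD5153 libraries lay above all 6 DMSO libraries. HDAC3 rose by 0.79 ± 0.06 (adjusted p = 1.9e-08) at 24 hours and by 1.02 ± 0.06 (adjusted p = 8.1e-10) at 48 hours, 1.73-fold and 2.03-fold. At 48 hours 1375 of the 15599 genes had a higher log2 fold change.

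HDAC1 (ENSG00000116478, chr1:32292083-32333635, plus strand), a catalytic subunit of CoREST, NuRD and Sin3, was at 2039, 2336 and 2114 normalized counts in DMSO and 2498, 2515 and 2695 with AZD5153 at 24 hours. The 48 hour values were 2216, 2168 and 2338 in DMSO and 3480.5, 3559 and 3653 with AZD5153. The groups did not overlap at either time, and the gap was wider at 48 hours. The rise was 0.25 ± 0.06 (adjusted p = 0.0013) at 24 hours and 0.67 ± 0.06 (adjusted p = 4.5e-08) at 48 hours, 1.19-fold and 1.59-fold. With libraries scaled to equal totals the 24 hour value was 0.13 and lost its call (adjusted p = 0.061, range over the alternatives 0.00032 to 0.061), while the 48 hour call held in every alternative run that sets no minimum fold change.

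HDAC8 (ENSG00000147099, chrX:72329516-72573101, minus strand), the deacetylase of cohesin, was the least abundant class I member, with 83 to 201 reads per library. Its normalized counts were 167, 143 and 151 in DMSO and 111, 97.3 and 103 with AZD5153 at 24 hours, and 144, 149 and 146 in DMSO and 116, 109.7 and 89 with AZD5153 at 48 hours. Each AZD5153 library was below each DMSO library. HDAC8 fell by 0.56 ± 0.14 (adjusted p = 0.002) at 24 hours and by 0.49 ± 0.14 (adjusted p = 0.0056) at 48 hours. The 48 hour call was lost with quantile normalization (-0.14, adjusted p = 0.38, range over the alternatives 0.0006 to 0.38). A second gene model on the same strand shares 1193 exon bases with HDAC8 and was at 0 in every library. Reads from the shared bases could have been left out of both counts, which was not tested.

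HDAC2 (ENSG00000196591, chr6:113933028-114011308, minus strand), the close relative of HDAC1 in the same complexes, was at 3875, 3804 and 3580.4 normalized counts in DMSO and 3511, 3472 and 3469 with AZD5153 at 24 hours. At 48 hours it was at 2766, 2797 and 2779 in DMSO and 2787, 2747 and 2753 with AZD5153. The time point separated these libraries more than the treatment did. The 24 hour difference of -0.11 ± 0.045 had an adjusted p of 0.045, which ranged from 0.00034 to 0.13 over the alternatives and was 0.095 with edgeR. The call was lost when any one of the 12 libraries was left out, other than replicate 3 of DMSO at 24 hours. The 48 hour difference was -0.01 ± 0.045, with an interval from -0.105 to 0.085. HDAC2 passed the threshold at 48 hours only with equal totals (-0.18) and quantile normalization (-0.13), of the alternatives run.

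Neither class IIb member was called at either time. HDAC6 (ENSG00000094631, chrX:48801377-48824982, plus strand), the tubulin deacetylase, was at 662, 649 and 668 normalized counts in DMSO and 705, 672 and 596 with AZD5153 at 24 hours, and at 837, 824 and 728 in DMSO and 805, 798 and 813 with AZD5153 at 48 hours. The treatments overlapped at both times. The log2 fold changes were -0.01 ± 0.08 (interval -0.17 to 0.16) and 0.02 ± 0.08 (interval -0.15 to 0.18). HDAC10 (ENSG00000100429, chr22:50245183-50251405, minus strand), the polyamine deacetylase, had 4 to 27 reads per library. It was at 6.76, 6.41 and 5.35 normalized counts in DMSO and 5.36, 9.21 and 7.34 with AZD5153 at 24 hours, and at 15.3, 23.9 and 16.2 in DMSO and 12.8, 19.6 and 5.99 with AZD5153 at 48 hours. The treatments overlapped, and a difference was not detectable at this depth: 0.19 ± 0.45 (interval -0.77 to 1.15) and -0.61 ± 0.45 (interval -1.57 to 0.35). HDAC10 shares 2763 exon bases with MAPK12 on the same strand, so reads from the shared bases could have been left out. MAPK12, a p38 kinase gene with a mean of 217 normalized counts, fell by 1.46 and 2.14 on the log2 scale.

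**Figure D2:**
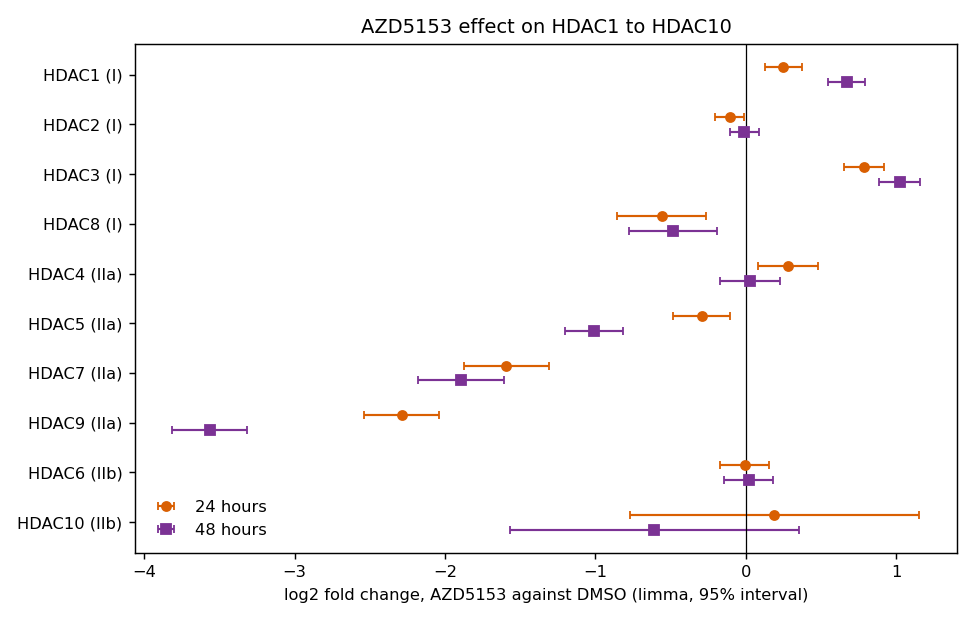
Log2 fold change of AZD5153 against DMSO for each member at 24 hours (circles) and 48 hours (squares), with 95% intervals from limma; the vertical line marks no change. HDAC9 lay at -2.29 and -3.56 and HDAC7 at -1.59 and -1.89, HDAC3 at 0.79 and 1.02, and the intervals of HDAC6 and HDAC10 included 0 at both times.

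The share of members called was near that of all genes. At 24 hours 8 of the 10 members passed the threshold (3 higher, 5 lower), where 68.5% of all genes tested did (33.9% higher, 34.6% lower). Leaving out each library in turn gave 6 to 8 members (2 to 3 higher, 4 to 5 lower), with 6 without replicate 2 of DMSO or of AZD5153 at 24 hours, where HDAC2 and HDAC4 lost their calls, and equal totals gave 6 (1 higher). At 48 hours 6 of the 10 passed (2 higher, 4 lower), against 67.0% of all genes (33.1% higher, 33.9% lower). Over both times 7 passed (3 higher, 4 lower), against 75.8% (37.7% higher, 38.0% lower). The HDAC4 call over both times (0.155, adjusted p = 0.044) was lost in 12 of the alternatives, with adjusted p from 0.015 to 0.92. The 3 libraries of one treatment lay wholly on one side of the other for 7 members at 24 hours and 6 at 48 hours, which 68.8% and 74.7% of all genes did. With a minimum log2 fold change of 1, HDAC7 and HDAC9 remained at 24 hours and HDAC3, HDAC5, HDAC7 and HDAC9 at 48 hours, where 26.5% and 25.4% of all genes passed. Over both times it left HDAC7 and HDAC9, against 25.6% of all genes. HDAC3 and HDAC5 lay at this minimum at 48 hours. Leaving out each library in turn gave 0.99 to 1.05 for HDAC3 and -1.04 to -0.975 for HDAC5. HDAC3 was as low as 0.85 among all alternatives run.

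The AZD5153 effect differed between 48 and 24 hours for 3 members (1 higher, 2 lower), against 24.5% of all genes (14.4% higher, 10.1% lower). Of these, HDAC9 alone passed a minimum log2 difference of 1, against 4.83% of all genes. HDAC9 had the largest difference, -1.28 ± 0.17 (adjusted p = 6.3e-05), followed by HDAC5 at -0.72 ± 0.13 (adjusted p = 0.00079) and HDAC1 at 0.42 ± 0.08 (adjusted p = 0.0017). All 3 effects had the same sign at both times and were larger at 48 hours. HDAC3 gave 0.24 ± 0.09 (adjusted p = 0.067), which passed the threshold without replicate 1 of DMSO at 24 hours (adjusted p = 0.035). For HDAC7 the difference was -0.30 ± 0.19, with an interval from -0.70 to 0.10, and -0.11 without that library, and for HDAC8 it was 0.07 ± 0.20, with an interval from -0.34 to 0.49.

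Several members also differed between the times in DMSO. HDAC10, which passed the minimum mean only through the 48 hour groups, is left out of these counts and gets no test between the times. Of the other 9 members, 5 were called between 48 and 24 hours (4 higher, 1 lower), where 35.7% of all genes were (16.4% higher, 19.3% lower). With eBayes run without the mean-variance trend, 4 of the 9 were called (3 higher, 1 lower). The libraries of the times did not overlap for 6 of these 9, as for 46.5% of all genes, and HDAC5 alone passed a minimum log2 fold change of 1, as did 3.72%. Leaving out each library in turn took the HDAC5 value from 0.95 to 1.18, so it did not always reach 1. HDAC5 rose by 1.09 ± 0.09 (adjusted p = 4.4e-07), 2.13-fold, and HDAC9 by 0.67 ± 0.12 (adjusted p = 0.00042). HDAC7 rose by 0.45 ± 0.13 (adjusted p = 0.016), a call lost without replicate 2 (0.43) or replicate 3 (0.43) of DMSO at 48 hours. Without replicate 1 of DMSO at 24 hours the value was 0.26 and still called (adjusted p = 0.032). HDAC2 fell by 0.43 ± 0.045 (adjusted p = 4.1e-06). HDAC6 rose by 0.27 ± 0.08 (adjusted p = 0.012) and lost its call without replicate 1 (0.23) or 2 (0.24) of DMSO at 48 hours. The DMSO libraries of HDAC10 were at 5.35 to 6.76 normalized counts at 24 hours and at 15.3 to 23.9 at 48 hours. HDAC5, HDAC7 and HDAC9, the class IIa genes called higher with time here, share these DMSO libraries with the AZD5153 comparisons.

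With AZD5153, 5 members were called between 48 and 24 hours (3 higher, 2 lower), against 29.7% of all genes (15.8% higher, 13.8% lower). For 6 members the times did not overlap, as for 47.2% of all genes, and 0 members passed a minimum log2 fold change of 1, where 3.67% of all genes did. HDAC1 rose by 0.47 ± 0.06 (adjusted p = 2.1e-05), HDAC5 by 0.37 ± 0.09 (adjusted p = 0.0051) and HDAC6 by 0.30 ± 0.08 (adjusted p = 0.0088). HDAC9 fell further, by 0.61 ± 0.12 (adjusted p = 0.001), and HDAC2 fell by 0.34 ± 0.045 (adjusted p = 4.5e-05). HDAC2, HDAC5 and HDAC6 were thus called with the same sign between times under both treatments, and HDAC9 with opposite signs.

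To compare levels between genes, normalized counts were divided by the merged exon length in kilobases. In DMSO at 24 hours the order was HDAC1 (545 ± 39.0 normalized counts per kilobase, SD, n = 3), HDAC5 (252 ± 41.1), HDAC2 (245 ± 10.0), HDAC3 (168 ± 8.62), HDAC7 (109 ± 23.7), HDAC6 (45.6 ± 0.66), HDAC4 (44.5 ± 2.79), HDAC9 (27.6 ± 1.04), HDAC8 (6.71 ± 0.53) and HDAC10 (1.25 ± 0.15). The library ranges of HDAC5 and HDAC2 overlapped, as did those of HDAC6 and HDAC4. The lengths of HDAC8 and HDAC10 include exon bases shared with another gene on the same strand. Reads from those bases could have been left out, which would lower the levels of HDAC8 and HDAC10. In DMSO at 48 hours the order was the same, with HDAC5 at 532 ± 12.4 next to HDAC1 at 565 ± 22.1, and the ranges of HDAC3 and HDAC7, of HDAC6 and HDAC4, and of HDAC4 and HDAC9 overlapped.

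With AZD5153 the order changed below HDAC1. At 24 hours HDAC3 was second (289 ± 10.2 normalized counts per kilobase), followed by HDAC2 (227 ± 1.55), HDAC5 (204 ± 9.53), HDAC4 (54.2 ± 5.58), HDAC6 (45.4 ± 3.86), HDAC7 (35.6 ± 4.75), HDAC9 (5.62 ± 0.65), HDAC8 (4.53 ± 0.31) and HDAC10 (1.48 ± 0.39), and the ranges of HDAC4 and HDAC6 overlapped. At 48 hours HDAC1 reached 899 ± 21.7 and HDAC3 312 ± 14.1, and HDAC9 (3.65 ± 0.33) lay between HDAC8 (4.58 ± 0.61) and HDAC10 (2.58 ± 1.37) with overlapping ranges on both sides. With the longest transcript in place of merged exons, HDAC3 was second in DMSO at 24 hours at 396 ± 20.4, its range overlapping that of HDAC2. The same length put HDAC3 (362 ± 11.6) above HDAC2 (286 ± 1.59) in DMSO at 48 hours. With AZD5153 at 24 hours it put HDAC6 (113 ± 9.63) above HDAC4 (85.6 ± 8.82) and HDAC8 (18.2 ± 1.24) above HDAC9 (9.60 ± 1.104), in each case with ranges apart. The order of these genes in those groups thus depends on the length used, while in AZD5153 at 48 hours it was the same with both lengths.

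**Figure D3:**
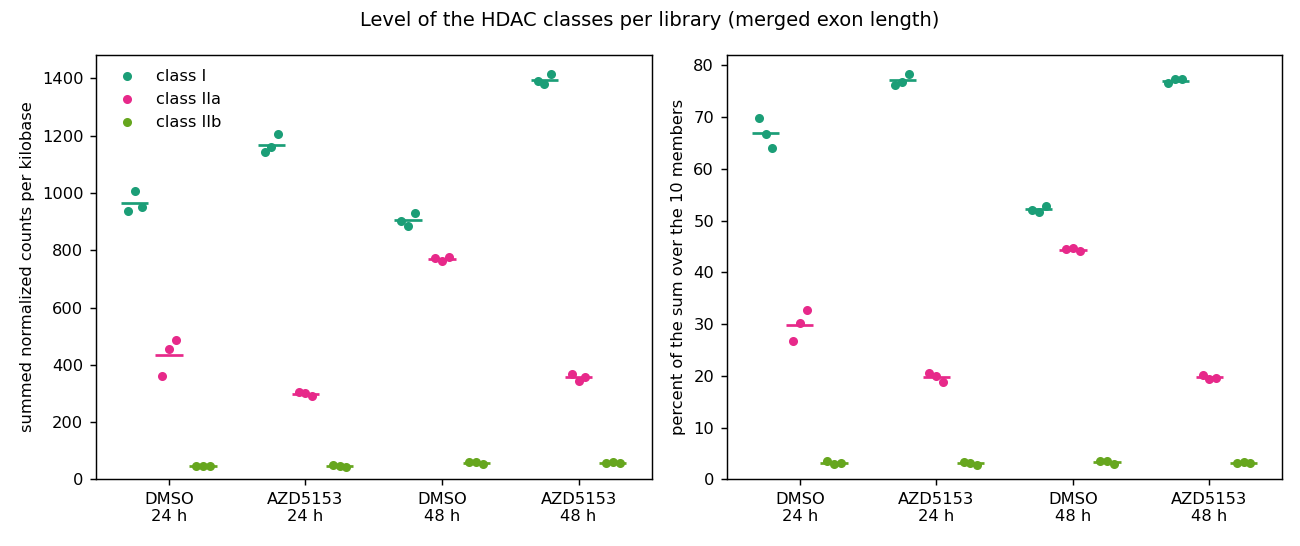
Summed level of each class per library in normalized counts per kilobase of merged exons (left) and as a percent of the sum over the 10 members (right); points are libraries and bars the means of 3. Class IIa made up 44.4% of the sum in DMSO at 48 hours and 19.7% in AZD5153 at 48 hours, and class IIb stayed between 2.77% and 3.62% in all libraries.

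Summed over its members, class IIa went from 433 ± 65.6 normalized counts per kilobase in DMSO to 299 ± 7.94 with AZD5153 at 24 hours. The 48 hour sums were 771 ± 6.89 and 357 ± 11.1. Class I went from 964 ± 36.0 to 1169 ± 32.8 at the earlier time and from 906 ± 23.2 to 1395 ± 17.2 at the later. HDAC5 and HDAC1, the most abundant member of each class, made up the largest part of these sums. At 24 hours HDAC7 (109 to 35.6) and HDAC3 (168 to 289) moved by more than HDAC5 (252 to 204) and HDAC1 (545 to 648). At 48 hours HDAC5 (532 to 264) and HDAC1 (565 to 899) moved most. As a percent of all 10 members, class I was at 66.9 ± 2.83% and 52.2 ± 0.58% in DMSO and at 77.1 ± 1.08% and 77.1 ± 0.43% with AZD5153 at 24 and 48 hours. The share of class IIa was 29.9 ± 3.00% and 44.4 ± 0.28% in DMSO and 19.8 ± 0.79% and 19.7 ± 0.45% with AZD5153. With the longest transcript in place of merged exons it was 26.1% and 39.5% in DMSO and 16.5% and 16.4% with AZD5153. The size of the sums and shares thus depends on the length used. The treatments lay further apart at 48 hours as in the DMSO libraries the share of class IIa was higher than at 24 hours, while it was alike at both times with AZD5153. No test was run on these sums and shares.

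Within the classes the balance of paralogues shifted. The ratio of HDAC1 to HDAC2 per kilobase was 2.23 ± 0.18 in DMSO and 2.85 ± 0.13 with AZD5153 at 24 hours, while at 48 hours it was 3.11 ± 0.13 and 4.99 ± 0.15. The ratio of HDAC4 to HDAC9 was 1.62 ± 0.17 in DMSO against 9.65 ± 0.29 with AZD5153 at 24 hours, and 1.12 ± 0.19 against 13.7 ± 1.51 at 48 hours. HDAC4 was below HDAC7 in every DMSO library (ratios of 0.42 ± 0.09 and 0.34 ± 0.05) and above it in every AZD5153 library (1.55 ± 0.29 and 1.27 ± 0.14). HDAC5 was the most abundant class IIa member in all 12 libraries. HDAC11, the single class IV enzyme, lies outside these classes and was at 39.4, 71.2 and 68.6 normalized counts in DMSO and 99.2, 127 and 102 with AZD5153 at 24 hours. Its groups overlapped at 48 hours (86.5, 115 and 123 in DMSO, 95.7, 122 and 121 with AZD5153). HDAC11 was higher at 24 hours (0.90 ± 0.22, adjusted p = 0.0021) and at 0.63 without the low replicate 1 of DMSO, and the 48 hour value was 0.07 ± 0.22.

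The partners of the members were read from lists of complex subunits and pathway genes. The counts of each list stand against 34.6% of all genes called lower and 33.9% higher at 24 hours, and 33.9% lower and 33.1% higher at 48 hours, and no test of a list was run. Of the NCoR complex, in which HDAC3 works, the list used here is not complete. In it 3 subunit genes were tested and called lower at both times, with medians of -1.41 and -0.645 against medians of 0.00 over all genes. TBL1XR1, a WD40 subunit, was at 5373 ± 685 normalized counts in DMSO and 1063 ± 64.9 with AZD5153 at 24 hours, and the 48 hour levels were 5091 ± 172 and 1288 ± 22.4 (SD, n = 3). Its log2 fold changes were -2.33 ± 0.075 and -1.98 ± 0.075. Its paralogue TBL1X gave -1.41 and -0.645, and the scaffold NCOR1 gave -0.49 and -0.19. The 48 hour call of NCOR1 was lost without replicate 2 of AZD5153 (-0.15). GPS2 was below the minimum and was not tested. Its means were 7.42 and 2.93 normalized counts in DMSO and 9.83 and 15.1 with AZD5153 at 24 and 48 hours. With no minimum mean the 24 hour median of the list was -0.95. HDAC3 and the 3 tested subunit genes had opposite signs at both times.

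The subunits shared with HDAC1 and HDAC2 moved both ways. Of 12 NuRD genes tested, 8 were lower and 2 higher at 24 hours (median -0.69), and 8 were lower and 3 higher at 48 hours (median -0.44). The remodelling ATPase CHD3 gave -1.49 ± 0.07 and -2.65 ± 0.07, the latter the largest 48 hour change in this list, while its paralogue CHD4 gave -0.04 and 0.10 and was not called. MTA3 fell by 1.63 and 1.41 and CDK2AP1 by 0.97 and 0.76. In CoREST, 3 of 7 genes were higher and 3 lower at each time (medians -0.05 and -0.02). The 24 hour median was 0.125 with a minimum mean of 100, and the 48 hour median ran from -0.06 to 0.04 with 1 library left out. RCOR2 was lower (-2.159 ± 0.23 and -2.555 ± 0.23), while its paralogue RCOR1 rose by 0.62 and 0.97 and HMG20B by 0.39 and 0.45. The 24 hour value of HMG20B was 0.22 without replicate 1 of DMSO.

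Of the 16 Sin3 genes, 5 were higher and 8 lower at 24 hours (median -0.21) and 5 higher and 7 lower at 48 hours (median 0.02). ING1, which reads methylated histone H3, rose by 0.60 and 1.09. SINHCAF fell by 0.64 and 1.02, and the histone chaperone RBBP4, which is in both Sin3 and NuRD, by 0.86 and 0.71. In MiDAC, the mitotic deacetylase complex, TRERF1 fell by 1.38 and 1.09, 1 and 2 of the 3 genes were higher, and the medians were 0.02 and 0.20. Cohesin, whose SMC3 subunit HDAC8 deacetylates, had 11 of 13 genes lower at each time and 0 and 1 higher, with medians of -0.80 and -0.46. STAG2 fell by 1.57 and 1.30, and the establishment factor CDCA5 was lower as well (-1.86 and -0.965). ESCO2, which acetylates SMC3, gave -1.9 and -0.46. CDCA5 and ESCO2 are also known as genes of dividing cells.

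**Figure D4:**
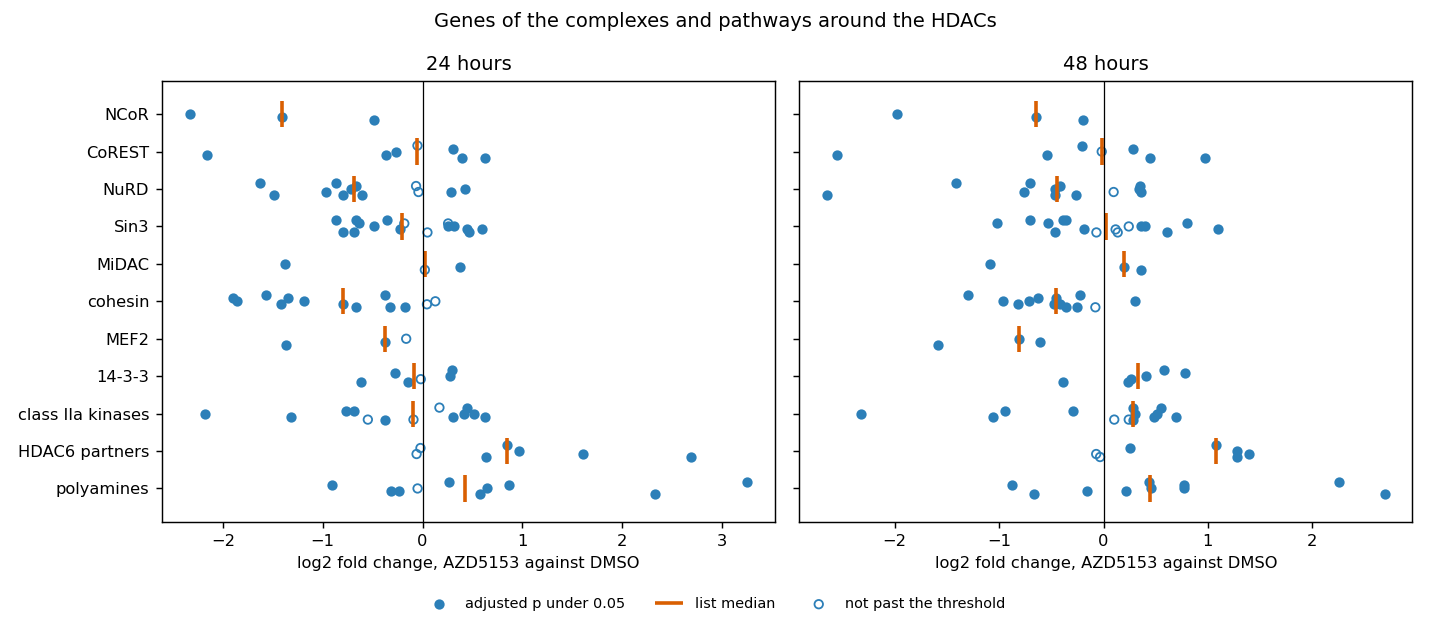
Log2 fold change of AZD5153 against DMSO for each tested gene (circles) of 11 lists at 24 hours (left) and 48 hours (right); filled circles passed the adjusted p threshold of 0.05 and orange bars are list medians. All 3 NCoR genes lay below 0 at both times, and the HDAC6 partner list had medians of 0.85 and 1.08.

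Around class IIa, 2 of 3 tested MEF2 genes were lower at 24 hours and 3 of 3 at 48 hours (medians -0.38 and -0.81). MEF2A gave -1.37 ± 0.065 and -1.585 ± 0.065, MEF2C -0.375 and -0.60, and MEF2D -0.16 (not called) and -0.81. Without replicate 1 of DMSO at 24 hours MEF2D was at -0.35 and called, which makes 3 of 3. Among 13 tested kinase genes that phosphorylate class IIa members, 5 were higher and 5 lower at 24 hours and 7 higher and 4 lower at 48 hours. The calmodulin-dependent kinases CAMK2A (-2.18 and -2.32), CAMK1D (-1.32 and -1.05) and CAMK2D (-0.69 and -0.95) were lower at both times. Others of that family were not: CAMK2G gave 0.17 (not called) and 0.28 (higher), CAMK4 -0.38 (lower) and 0.28 (higher), and CAMK1 -0.55 and 0.24, neither called. Of the 6 tested 14-3-3 genes, 2 were higher and 3 lower at 24 hours and 5 higher and 1 lower at 48 hours. YWHAZ fell by 0.62 and 0.38, and YWHAQ rose by 0.29 and 0.58 and YWHAG by 0.28 and 0.41.

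Although HDAC6 itself was not called, 5 of the 7 genes listed as its substrates, partners or counterparts were higher at each time and 0 were lower. SQSTM1, the p62 receptor of ubiquitinated proteins, rose by 2.69 ± 0.08 and 1.28 ± 0.08. SIRT2, the other tubulin deacetylase, went from 584 ± 50.7 to 1779 ± 72.8 normalized counts at 24 hours, and at 48 hours from 749 ± 74.4 to 1959 ± 25.1, log2 fold changes of 1.61 and 1.39. HSP90AA1 rose by 0.96 and 1.28, although with quantile normalization its 24 hour value was -0.12. Around HDAC10, 6 of 10 tested polyamine genes were higher and 3 lower at 24 hours, and 7 higher and 3 lower at 48 hours. SAT1, which acetylates spermidine and spermine, rose by 3.25 ± 0.055 and 2.26 ± 0.055, and ODC1, the first enzyme of the pathway, by 2.33 ± 0.04 and 2.69 ± 0.04. SMS, spermine synthase, fell by 0.91 and 0.88.

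The nearest tested protein-coding genes that do not overlap the member were also read on each side of the 6 members called at 48 hours, a choice made after the members' values were seen. The overlapping genes SLC48A1 and G6PC3 were left out here and have their values beside HDAC7 and HDAC5 above. The calls of neighbours stand against 34.6% of all genes called lower and 33.9% higher at 24 hours. At 48 hours these shares were 33.9% lower and 33.1% higher. Both neighbours of HDAC9, SNX13 at 146448 bases and POLR1F at 693045 bases from it, were lower, by less than HDAC9 itself. SNX13 fell by 0.76 and 0.69 and POLR1F by 0.38 and 0.22 at 24 and 48 hours. Both of these neighbours of HDAC7 were lower as well, RAPGEF3 by 1.74 and 2.51 and the vitamin D receptor gene VDR by 0.45 and 0.55. Beside HDAC3, DIAPH1 was higher at both times (0.52 and 1.00), and RELL2, 101 bases away, gave 0.58 (called) and 0.32 (not called). The RELL2 call was lost without replicate 1 or 2 of DMSO at 24 hours (0.47 and 0.54), and its 48 hour value was 0.10 without replicate 2 of DMSO. HDAC8, which fell, lay between PIN4 (0.84 and 0.49) and PHKA1 (0.72 and 0.815), which were both higher, although the 48 hour call of PIN4 was lost without replicate 2 of DMSO (0.42) or replicate 1 (0.41) or 3 (0.44) of AZD5153. HDAC1 lay 204 bases from MARCKSL1 (1.68 and 1.51), and its other neighbour EIF3I was called at 48 hours only (-0.02 and 0.31). HDAC5 had a lower neighbour in HROB (-2.55 and -2.10), while LSM12 gave -0.07, which is not called, and 0.30. Members not called at 48 hours had called neighbours too. Among them were MARCKS beside HDAC2 (-1.58 and -1.44) and SUV39H1 beside HDAC6 (-2.41 and -1.69), which were lower. NDUFA10 beside HDAC4 (0.31 and 0.46) and TUBGCP6 beside HDAC10 (1.05 and 1.11) were higher. On their other sides, PCSK1N beside HDAC6 was higher (2.13 and 1.87) and MAPK11 beside HDAC10 was lower (-1.52 and -1.95). FRK beside HDAC2 gave -0.48 (not called) and -1.71 (lower), and TWIST2 beside HDAC4 gave -0.17 (not called) and 0.26 (higher).

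Across the 12 libraries, the genes most like each member were those with the highest Pearson r of log2 values, among 10858 genes with a symbol and a mean of at least 100 normalized counts. The libraries fall into 4 groups, so these values mainly follow the group means, and they are given as a description. HDAC9 was most like TRIB2 (r = 0.997), SPOCD1 (0.995) and SH3PXD2A (0.994). HDAC7 came closest to NFKB2, PKN3 and MLLT6 (0.996 each), and HDAC5 to FZD7 (0.988), MEF2D (0.986) and APOE (0.982). For HDAC3 the genes were GBF1 (0.995), GTF3C1 (0.995) and UBA1 (0.994), for HDAC1 EHD2 (0.981), ATPAF1 (0.977) and LRBA (0.973), and for HDAC2 UTP20 (0.984), TUBA1C (0.979) and PSMD14 (0.977). HDAC8 was most like TNFSF13B (0.983), SNUPN (0.973) and TRMT13 (0.973). Lower best values were found for HDAC6, HDAC10 and HDAC4: HDAC6 with VAMP5 (0.927), YPEL3 (0.926) and KANK2 (0.922), HDAC10 with MON1B (0.892), PIK3CD (0.864) and GMIP (0.843), and HDAC4 with TINF2 (0.849), TLE1 (0.82) and CSKMT (0.806).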

How the data were processed

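RNA-Seq of SF8628 cells was used. The authors used STAR on hg38 for alignment and HTSeq-count for gene counts, which they divided by DESeq2 size factors (versions and annotation not given in the sources used here). The deposited values per library are therefore a signal of normalized counts. The authors' log2 fold changes, test score and p-values in the deposited table were not used. Values divided back into whole reads for 100% of entries (tolerance 0.01), and 60463 of 60664 identifiers matched GENCODE 44 on GRCh38. Tests used limma: log2(normalized count + 1), 15599 genes with a mean of at least 10, lmFit with 4 group means in one fit (8 residual degrees of freedom), eBayes with a mean-variance trend, and p adjusted by Benjamini-Hochberg with a threshold of 0.05. Fold changes are on that log2 scale.

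Members and lists were chosen with earlier results of these data known. The text names the 10 members, HDAC11, up to 3 genes per list with the largest change over both times among those called at both times in one direction without overlap, and the 3 genes most like each member. CHD4, GPS2, MEF2D, CAMK2G, CAMK4, CAMK1, markers, overlapping genes and neighbours were added after values were seen. A further gene of the NCoR complex is not reported here. Replicate libraries differed by a chi-square per degree of freedom of 2.12 to 25.6, more than sampling noise, with the highest values in pairs with replicate 1 of DMSO at 24 hours. The fits were tested on simulated data for the 24 hour comparison, with 199 of 15442 genes changed by 1 on the log2 scale. Of these, limma recovered 82.9% with 4.62% false calls, edgeR 82.9% with 5.17% and DESeq2 82.4% with 9.39%. In the real 24 hour comparison 68.5% of genes were called, a far larger share, so these rates need not hold there. Alternatives covered the pseudocount, the minimum mean, the scaling, the fit, edgeR and DESeq2 on recovered reads, a minimum fold change and leaving out each library. R 4.3.3, limma 3.58.1, edgeR 4.0.16 and DESeq2 1.42.0 were used, with Python 3.11.15 for tables and figures.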

Additional observations from a re-analysis of the deposited data

Results flagged for a closer look

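The AZD5153 effect differed between 48 and 24 hours for 3 members by the interaction term of the limma fit. HDAC9 differed by -1.28 on the log2 scale, with a decrease at both times that was larger at 48 hours. HDAC5 differed by -0.72, with the DMSO libraries higher at 48 than at 24 hours. HDAC1 differed by 0.42, with an increase at both times. Each of these calls held in every alternative run that set no minimum fold change, with adjusted p from 7.2e-10 to 0.0005 for HDAC9, 1.3e-06 to 0.01 for HDAC5 and 2.6e-05 to 0.011 for HDAC1. Groups of 3 libraries were not tested for a single library far from the others.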

How the results depend on the processing

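The calls of HDAC3, HDAC7 and HDAC9 at 24 and 48 hours, and those of HDAC1 and HDAC5 at 48 hours, held in every alternative run without a minimum fold change. The 24 hour calls of HDAC5 and HDAC8 held in these runs too, but with adjusted p of up to 0.045 and 0.036. Of the values of the 10 members under alternatives, 1372 kept their direction and side of the threshold, 65 lost their call, 7 gained one and 30 changed sign. This tally still holds the values of HDAC10 between the times, from which no result is drawn here. HDAC10 had 4 to 27 reads per library, and the part of depth or of the exon bases shared with MAPK12 in this was not tested. Scaling to equal totals moved the median of all genes by -0.12 at 24 hours, -0.17 at 48 hours and -0.14 over both times. The value for HDAC6 over both times then was -0.14 and called, close to that median. Under equal totals, 1 member was called higher at 24 hours, and at 48 hours HDAC4 was at -0.14, HDAC6 at -0.15 and HDAC11 at -0.10.

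With a minimum log2 fold change of 1, the calls at 24 hours were 2 members (0 higher, 2 lower) and 4140 genes. At 48 hours 1 member was higher, with 3959 genes. Over both times 2 members (0 higher, 2 lower) and 3999 genes were called, for the difference between times 1 member (0 higher, 1 lower) and 754 genes, for time in DMSO, without HDAC10, 1 member (1 higher, 0 lower) and 580 genes, and for time in AZD5153 0 members (0 higher, 0 lower) and 573 genes. With a minimum mean of 100, 2 members were higher in the difference between times.

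Other changes of sign concerned values that were not called, other than that of HSP90AA1. HDAC6 at 24 hours was 0.010 with TMM, 0.063 with quantile normalization and 0.014 with edgeR, and its difference between times was -0.022 with equal totals, -0.006 with TMM, -0.052 with quantile normalization and -0.013 with edgeR. HDAC8 between times in AZD5153 was -0.007 with TMM, -0.031 with quantile normalization and -0.00 with edgeR. HDAC10 over both times was 0.077 and HSP90AA1 at 24 hours -0.12 with quantile normalization. Among the other genes named, quantile normalization ended the calls of VDR at both times (-0.24 each) and YWHAG at 24 hours (0.07), and equal totals those of SLC48A1 (0.15) and RELL2 (0.46) at 24 hours and of LSM12 (0.13) and PIN4 (0.32) at 48 hours. The cause was not tested.

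Leaving out each library in turn gave, without HDAC10, 3 to 5 members called for time in DMSO (2 to 4 higher), with the lowest counts without replicate 2 of DMSO at 48 hours, and 1 to 2 members higher in the difference between times, with 2 without replicate 1 of DMSO at 24 hours. It moved HDAC6 from -0.06 to 0.062 at 24 hours, -0.045 to 0.056 at 48 hours, -0.026 to 0.04 over both times and -0.043 to 0.078 in the difference. HDAC4 at 48 hours ran from -0.052 to 0.098, HDAC11 at 48 hours from -0.084 to 0.182, HDAC10 over both times from -0.39 to 0.003, HDAC8 from -0.001 to 0.19 in the difference and -0.068 to 0.12 between times in AZD5153, and LSM12 at 24 hours from -0.168 to 0.047. The HDAC4 call over both times was lost without replicate 2 of DMSO or replicate 2 or 3 of AZD5153 at 24 hours, and without replicate 2 or 3 of DMSO or replicate 1 or 2 of AZD5153 at 48 hours (0.11 to 0.195 over all 12). HDAC2 over both times gained a call without replicate 3 of DMSO at 24 hours (-0.075).

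The replicate numbers did not pair the libraries: the correlation of deviations of same-numbered libraries was -0.15 to 0.04 (18 pairs). With the number as a replicate block, 7 members were called at 24 hours, 6 at 48 hours, 6 over both times, 3 for the difference, 5 for time in DMSO without HDAC10 and 5 for time in AZD5153. Under it HDAC2 at 24 hours (adjusted p = 0.067) and HDAC4 over both times (adjusted p = 0.061) lost their calls, and it changed no other call of a member. The difference between times for HDAC11 gained a call (adjusted p = 0.027).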
